A study of Mus musculus with 8 samples.

Results

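Transcripts of acyl-CoA thioesterases and mitochondrial uncoupling proteins were followed in soleus muscle of control mice and of mice with floxed Klf15 alleles. Klf15 encodes a Kruppel-like zinc finger transcription factor. The group holds 9 genes, taken by symbol from the 24033 genes of the deposited table: the thioesterases Acot1, Acot2, Acot7, Acot9, Acot11, Acot13 and Them4, and the uncoupling proteins Ucp2 and Ucp3. Each symbol matched 1 row. RNA was sequenced from soleus, a slow hindlimb muscle, of mice aged 2 months. The 4 MyoCre controls had the genotype Myogenin-Cre/+, in which a Cre recombinase is driven from the myogenin gene, active in skeletal muscle cells. The 4 K15-SKO mice had the genotype Myogenin-Cre/+;K15F/F, so all 8 animals carried the Cre and only the K15-SKO mice carried the floxed alleles. Cells of the muscle outside the Cre lineage keep the gene, and their RNA is part of each library.

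Acyl-CoA thioesterases cut an acyl-CoA into a free fatty acid and coenzyme A, the reverse of what acyl-CoA synthetases do. Some work in the cytosol and others in mitochondria or peroxisomes, and by returning free coenzyme A they can relieve a pool tied up in acyl-CoA. Uncoupling proteins are carriers of the inner mitochondrial membrane. Ucp3 is known mainly from skeletal muscle, where its transcript follows fatty acid supply, and Ucp2 is widespread and abundant in immune cells. Several of these genes, Acot1, Acot2, Ucp2 and Ucp3 among them, are known targets of PPAR nuclear receptors.

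Klf15 itself was measured at 44.5, 49.8, 49.1 and 22.8 FPKM (fragments per kilobase of transcript, scaled to library size) in MyoCre replicates 1 to 4 and at 15.7, 19.3, 16.7 and 13.1 FPKM in K15-SKO replicates 1 to 4. The highest K15-SKO value was under the lowest MyoCre value (two-sided exact permutation test, p = 0.0286, the smallest that 70 assignments allow). Its log2 fold change was -1.28 (adjusted p = 0.0315 in limma, a linear model fitted to all tested genes). The call passed in 7 of 20 alternative fits and ended without MyoCre replicate 1 (limma adjusted p = 0.123), 2 (0.0855) or 3 (0.199), and without K15-SKO replicate 1 (0.0939), 3 (0.152) or 4 (0.0534). Depth, estimated from the lowest values in each library, was 7840000 to 22200000 fragments per library. Slow fibre markers such as Myh7 and Tnnt1 were present in all 8 libraries. They summed to 10259 to 18093 FPKM in MyoCre and 10119 to 19242 FPKM in K15-SKO muscle. Fast fibre markers were also present in all 8 libraries. Their sums were 7630 to 17661 FPKM in MyoCre and 7086 to 18450 FPKM in K15-SKO muscle. The fast sums include Myh2, listed at 0 in all MyoCre libraries and with a mean of 1407 FPKM in K15-SKO muscle. Such a listing need not mean absence. The fast marker Myh4 ranged from 3.48 to 285 FPKM over the 8 libraries. The part of fibre type in the other levels was not tested. MyoCre replicate 2 was the only male library, with Xist at 0.0103 FPKM against 21.0 to 50.3 FPKM in the others, and it was also the deepest. K15-SKO replicate 3 had the lowest scaling factor, 0.796 against at least 0.953 elsewhere, and the highest sum of erythroid markers, 2034 FPKM against 284.0 to 577.4 FPKM. In bulk muscle, fewer cells of a type and less RNA per cell cannot be told apart.

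Of the 9 genes, Acot1 was lower in K15-SKO muscle past an adjusted p of 0.05 and none was higher. The test, on log2(FPKM + 0.5) in limma, covered the 12535 genes averaging 1 FPKM or more, and all 9 passed this filter. Over all tested genes 0.183% were called lower and 0.367% higher, which is 23 and 46 genes. Without genes listed at 0 in a whole genotype these counts were 12 and 0, and Acot1 was still called (limma adjusted p = 0.0427). When median-of-ratios scaling was added, the counts were 3 and 0 and Acot1 was not called (limma adjusted p = 0.233). Acot1, Acot7 and Acot11 had all 4 K15-SKO libraries below all 4 MyoCre libraries, which held for 2.72% of all tested genes; no gene of the 9 had all K15-SKO libraries above, as 0.630% of tested genes did. Fold changes were negative for 8 of the 9, with a median of -0.29 on the log2 scale, where 77.0% of all tested genes were negative and their median was -0.12. The 9 genes were selected on results of this comparison, so these counts, fold changes and p-values describe the selection and support nothing further. The pseudocount of 0.5 shrinks the fold changes of weakly expressed genes.

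**Figure D1:**
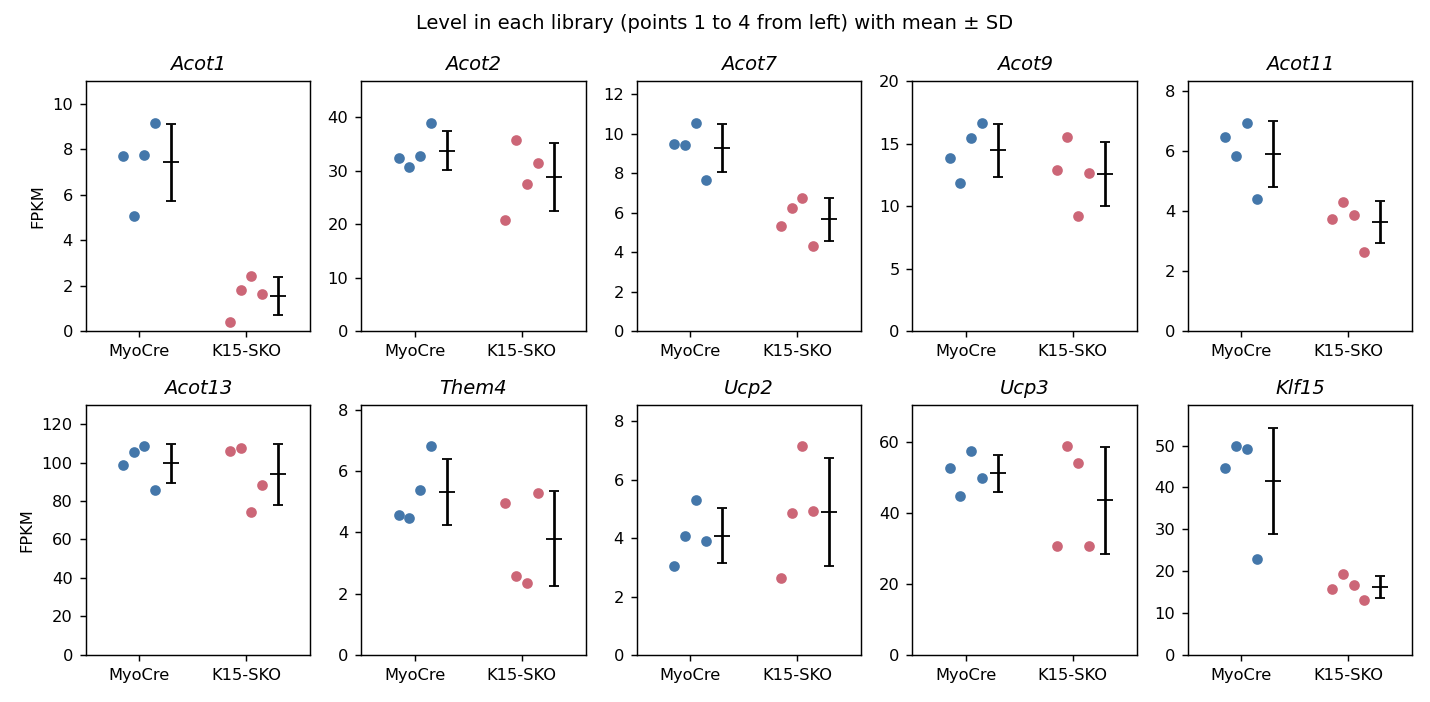
FPKM (vertical axes, each from 0) of the 9 genes and of Klf15 in the 4 MyoCre (blue) and 4 K15-SKO (red) libraries, with points 1 to 4 in order of replicate number and bars showing mean ± SD. Acot1, Acot7, Acot11 and Klf15 separate without overlap, whereas the other genes overlap between the genotypes.

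Acot1, a cytosolic long-chain acyl-CoA thioesterase, measured 7.70, 5.08, 7.74 and 9.17 FPKM in the MyoCre libraries and 0.393, 1.79, 2.42 and 1.61 FPKM in K15-SKO replicates 1 to 4. The highest K15-SKO value was below the lowest control value, that of the male library. K15-SKO replicate 1 stood lowest, at an estimated 9.51 fragments against 33.1 to 57.8 in the other K15-SKO libraries and 162.9 to 293.9 in MyoCre, if all came from the longest annotated transcript. The means were 7.42 ± 1.71 and 1.56 ± 0.85 FPKM (SD, n = 4 each), so K15-SKO muscle had 21.0% of the MyoCre mean. On the log2 scale this was a fold change of -2.04 (95% interval -2.76 to -1.33; limma adjusted p = 0.0106). The fold change kept its sign in 19 of 19 alternative fits, from -2.69 to -1.68, and passed the threshold in 13 of them. Without the male library it was -2.20. With median-of-ratios scaling it was -1.92 (limma adjusted p = 0.0800), without K15-SKO replicate 4 the limma adjusted p was 0.0536, and without MyoCre replicate 3 it lay just above the threshold.

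Acot2, the mitochondrial matrix counterpart of Acot1, overlapped between the genotypes. It measured 32.5, 30.7, 32.7 and 39.0 FPKM in the MyoCre libraries and 20.8, 35.7, 27.5 and 31.5 FPKM in K15-SKO muscle. Of the K15-SKO libraries, replicates 1 and 3 fell below the MyoCre range and replicates 2 and 4 lay inside it. Its log2 fold change was -0.24 (95% interval -0.66 to 0.18; limma adjusted p = 0.957), and -0.11 with median-of-ratios scaling. Both genes lie on the plus strand of chromosome 12, Acot2 from 83987861 to 83993873 and Acot1 from 84009490 to 84018371 (mm10), with 15.6 kb between them and no other protein-coding gene in the gap.

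As a share of the summed FPKM of both genes, Acot1 took 19.2%, 14.2%, 19.1% and 19.0% in the MyoCre libraries. The share in K15-SKO muscle was 1.85%, 4.79%, 8.11% and 4.88%. All 4 K15-SKO shares were below the lowest control share, which was again that of the male library. This share does not depend on how the libraries were scaled. It does depend on how reads that match both genes were divided. Of the 50-base windows in the annotated Acot1 transcripts, 13.6% also occur in Acot2, and 18.4% occur in at least 1 other gene of the Acot family. Of the windows in Acot2, 24.5% occur in Acot1. Both levels are therefore uncertain to the extent that shared reads were split between the copies.

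**Figure D2:**
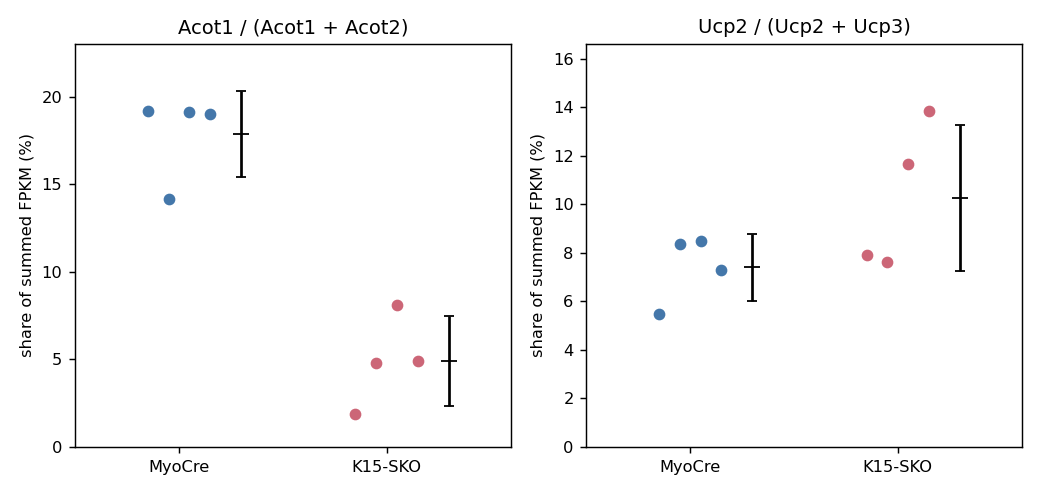
Share (%) of Acot1 in the summed FPKM of Acot1 and Acot2 (left) and of Ucp2 in the summed FPKM of Ucp2 and Ucp3 (right) for each library, with mean ± SD beside the points. The Acot1 share is 14.2% to 19.2% in MyoCre and 1.85% to 8.11% in K15-SKO muscle, whereas the Ucp2 shares overlap.

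The start regions are shown because the neighbouring copies Acot1 and Acot2 differed in level and because Acot7 and Acot11 were low in the same libraries. Each sequence is the 250 bases before the RefSeq start in GRCm38.p6, written 5′ to 3′ along the gene, and capitals mark matches on either strand to Kruppel-type motifs: the CACCC-box motif CCACCC, its longer form CCCCACCC, the GC-box motif CCGCCC and its longer form CCCCGCCC.
Acot1, chr12:84009252-84009501, plus strand: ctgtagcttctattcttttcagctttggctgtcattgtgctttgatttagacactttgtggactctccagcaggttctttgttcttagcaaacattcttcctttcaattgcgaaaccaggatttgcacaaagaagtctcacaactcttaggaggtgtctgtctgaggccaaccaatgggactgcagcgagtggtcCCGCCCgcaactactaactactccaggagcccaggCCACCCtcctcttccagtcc
Acot2, chr12:83987611-83987860, plus strand: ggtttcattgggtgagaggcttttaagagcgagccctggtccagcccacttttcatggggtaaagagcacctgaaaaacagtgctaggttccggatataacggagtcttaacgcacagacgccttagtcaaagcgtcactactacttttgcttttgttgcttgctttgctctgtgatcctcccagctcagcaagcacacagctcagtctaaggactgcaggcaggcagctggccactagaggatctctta
Acot7, chr4:152185358-152185607, plus strand: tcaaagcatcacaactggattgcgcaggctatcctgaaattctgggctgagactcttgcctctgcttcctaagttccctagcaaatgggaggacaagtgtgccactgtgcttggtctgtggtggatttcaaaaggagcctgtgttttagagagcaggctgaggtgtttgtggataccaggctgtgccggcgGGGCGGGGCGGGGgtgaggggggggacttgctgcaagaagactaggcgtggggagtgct
Acot11, chr4:106805008-106805257, minus strand: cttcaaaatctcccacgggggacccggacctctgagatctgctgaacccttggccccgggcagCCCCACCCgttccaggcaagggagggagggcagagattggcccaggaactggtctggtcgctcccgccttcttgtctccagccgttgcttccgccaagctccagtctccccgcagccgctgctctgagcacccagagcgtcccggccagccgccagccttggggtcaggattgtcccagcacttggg

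Kruppel-like factors are known to bind CACCC and GC-rich boxes. The 8-base motif CCCCACCC contains CCACCC, and CCCCGCCC contains CCGCCC. The Acot1 region held CCACCC at -20 and CCGCCC at -55, counted from the start to the first base of the match. The Acot2 region held neither, and aligned with that of Acot1 at 50.2% of positions, against 48.3% for Acot1 with the unrelated region of Acot7. In Acot7 a pair of overlapping CCCCGCCC matches stood at -59 and -54. This Acot7 window lies inside the annotated gene, which begins at 152178134, and the region before that outer start was not searched. In Acot11 a CCCCACCC match stood at -187, and its second RefSeq start had 3 CCGCCC matches. Genes that overlapped between the genotypes held these motifs as well: Them4 had CCACCC at -18 and 4 CCGCCC matches, the most of any of these windows, Acot9 had CCGCCC at -22 and Ucp2 had it at -79. A window was found for 8 of the 9 genes, all but Acot13. Of all 32851 such windows, 28.1% held CCACCC, 32.7% CCGCCC, 9.05% CCCCACCC and 16.1% CCCCGCCC, so such matches are common. The nuclear receptor motif AGGTCA, and its direct repeat with 1 base between that PPAR and RXR pairs are known to bind (DR1), were searched on both strands as well. Ucp3 held AGGTCA at -149 and at -44, a motif found in 14.0% of all windows. None of the 8 genes held DR1, which occurred in 11 of the 32851 windows. A match is a description of these letters and not a binding site.

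Acot7 and Acot11 formed the next pair. Acot7, a cytosolic thioesterase best known from brain, measured 9.49, 9.44, 10.6 and 7.64 FPKM in MyoCre and 5.31, 6.26, 6.74 and 4.32 FPKM in K15-SKO muscle. The groups did not overlap, and the lowest library of each genotype was its replicate 4. The means were 9.28 ± 1.21 and 5.66 ± 1.07 FPKM (SD, n = 4 each), with 60.9% of the MyoCre mean left in K15-SKO muscle. The log2 fold change of -0.68 (95% interval -1.08 to -0.27) missed the threshold over all genes (limma adjusted p = 0.334).

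Acot11, a thioesterase with a lipid-binding START domain that is known from brown fat, measured 6.47, 5.82, 6.95 and 4.42 FPKM in MyoCre and 3.73, 4.30, 3.88 and 2.63 FPKM in K15-SKO libraries. Again the groups did not overlap and replicate 4 was the lowest of each genotype. K15-SKO muscle kept 61.5% of the MyoCre mean, a log2 fold change of -0.63 (95% interval -1.06 to -0.21; limma adjusted p = 0.554). With library weights the fit called both genes, with limma adjusted p-values of 0.00621 for Acot7 and 0.0352 for Acot11, and this was the only alternative in which either passed. After each genotype's mean was subtracted, the log2 levels of Acot7 and Acot11 correlated at r = 0.91 over the 8 libraries, the highest of the 36 pairs of the 9 genes. This is a description over libraries that share depth and scaling. Both genes are on chromosome 4, Acot7 from 152178134 to 152271855 on the plus strand and Acot11 from 106744555 to 106804998 on the minus strand. Their transcripts shared no 50-base window with the other genes of the Acot and Ucp families compared. Genes that overlap Acot7 and Acot11 in the annotation were near 0 in the table where they had a row: Gm13096, within Acot7, had means of 0 (MyoCre) and 0.367 FPKM (K15-SKO), and Fam151a, opposite Acot11, means of 0.0137 (MyoCre) and 0 FPKM (K15-SKO).

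Markers of brown fat and nerve, cells known for Acot11 and Acot7, overlapped between the genotypes. Ucp1, the brown fat uncoupling protein, was listed at 0 in 7 of the 8 libraries and at 0.0621 FPKM in MyoCre replicate 4, and Elovl3, another brown fat gene, at 0 in 7 of 8 and at 0.0709 FPKM in K15-SKO replicate 2. Of the 4 brown fat markers 2 were tested and 0 were called, and the list summed to 4.59 to 7.18 FPKM in MyoCre and 3.28 to 5.75 FPKM in K15-SKO libraries. Both tested brown fat markers had negative fold changes, -0.44 for Cidea and -0.19 for Dio2, the same direction as Acot11. Over all tested genes 77.0% had a negative fold change, with a median of -0.12. Of the 6 Schwann cell and nerve markers 4 were tested and 0 were called, with sums of 54.7 to 59.9 FPKM and 45.6 to 62.3 FPKM. The part of these cells in the levels of Acot7 and Acot11 was not tested.

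The remaining thioesterases overlapped between the genotypes. Acot13, a small thioesterase associated with mitochondria, was the most abundant of the 9 genes. It measured 98.5, 105.4, 108.4 and 85.9 FPKM in MyoCre and 106.2, 107.4, 74.2 and 88.1 FPKM in K15-SKO libraries. Only K15-SKO replicate 3 lay outside the MyoCre range. The log2 fold change of -0.09 (95% interval -0.48 to 0.29; limma adjusted p = 0.957) turned to 0.05 with median-of-ratios scaling. Acot13 alone made up 50.6% to 61.0% of the summed FPKM of the 7 thioesterases in MyoCre and 58.7% to 68.8% in K15-SKO libraries.

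Acot9, a mitochondrial thioesterase encoded on the X chromosome (155262443 to 155297654), measured 13.9, 11.8, 15.5 and 16.7 FPKM in MyoCre and 12.9, 15.5, 9.24 and 12.7 FPKM in K15-SKO libraries. The male library was the lowest MyoCre library, and K15-SKO replicate 3 the lowest of all. The log2 fold change was -0.21 (95% interval -0.63 to 0.22; limma adjusted p = 0.957), -0.30 without the male library and -0.07 without K15-SKO replicate 3. The annotated transcripts of Acot9 share 15.2% of their 50-base windows with Acot10, a related gene with a single transcript on chromosome 15, which measured 1.25 ± 0.30 and 0.90 ± 0.32 FPKM (SD, n = 4 each).

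Them4, a mitochondrial thioesterase also known as a binding partner of the kinase Akt, measured 4.57, 4.47, 5.38 and 6.80 FPKM in MyoCre and 4.97, 2.57, 2.34 and 5.29 FPKM in K15-SKO libraries. The K15-SKO libraries split, with replicates 2 and 3 below the MyoCre range and replicates 1 and 4 inside it. Its log2 fold change was -0.49 (95% interval -1.04 to 0.05; limma adjusted p = 0.957). Around the genotype means Them4 went against Acot7 (r = -0.85) and Ucp3 (r = -0.83) over the 8 libraries.

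**Figure D3:**
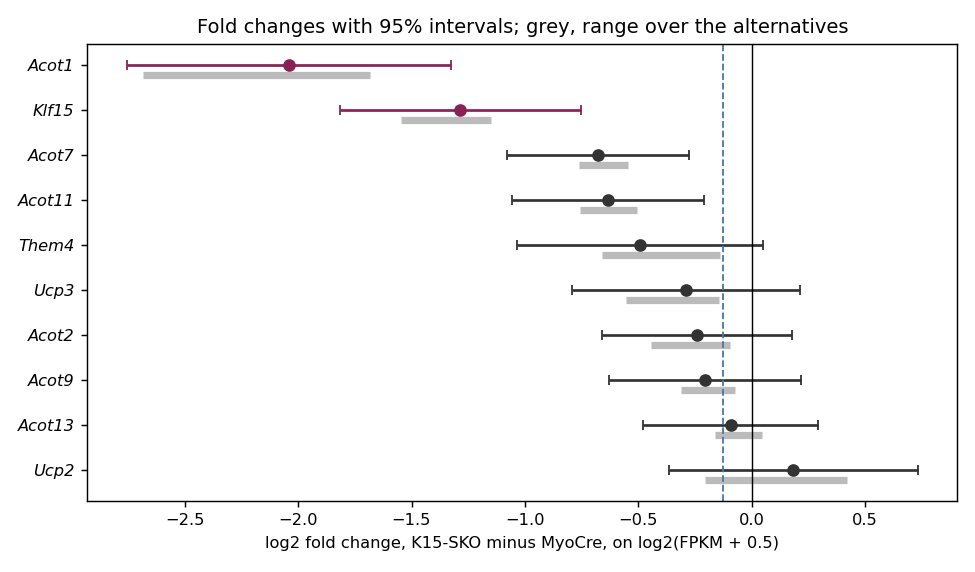
Log2 fold change (horizontal axis, K15-SKO minus MyoCre) with 95% intervals for the 9 genes and Klf15. Purple marks an adjusted p under 0.05, grey bars span the alternative fits, and the dashed line is the median of all tested genes, -0.12; Acot1 and Klf15 are the purple points.

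Ucp3, the uncoupling protein of skeletal muscle, measured 52.5, 44.9, 57.4 and 49.8 FPKM in MyoCre and 30.6, 58.7, 54.1 and 30.8 FPKM in K15-SKO libraries. The controls were close together, whereas K15-SKO replicates 1 and 4 lay below all controls and replicates 2 and 3 within or above the control range. The spread was 10.3% of the mean in MyoCre and 34.4% in K15-SKO muscle; this difference in spread was not tested. The log2 fold change was -0.29 (95% interval -0.79 to 0.21; limma adjusted p = 0.957). By the rule for likeness, the tested genes whose deviations from the genotype means followed Ucp3 most closely were Gm15289 (r = 0.99), Cpt1a (r = 0.98), Iba57 (r = 0.97), Dnase2a (r = 0.96) and Cdk5 (r = 0.96), each over 8 libraries. Cpt1a, a carnitine palmitoyltransferase, measured 7.96, 7.67, 8.17 and 8.01 FPKM in MyoCre and 5.57, 7.13, 7.18 and 5.75 FPKM in K15-SKO libraries. K15-SKO replicates 1 and 4 were thus the lowest for both genes. These genes were picked as the highest correlations over all tested genes.

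Ucp2 was the only one of the 9 genes with a positive fold change. It measured 3.04, 4.09, 5.32 and 3.91 FPKM in MyoCre and 2.63, 4.85, 7.14 and 4.94 FPKM in K15-SKO libraries. K15-SKO libraries lay both below and above the MyoCre range. Its log2 fold change was 0.18 (95% interval -0.36 to 0.73; limma adjusted p = 0.957), and it was -0.01 without K15-SKO replicate 3. By the same rule the genes most like Ucp2 were S1pr2 and Glb1 (r = 0.97 each) and Higd1b, Plp2 and Pcdhgc3 (r = 0.96 each). For Acot1 they were Tm6sf1 (r = 0.96), Dancr (r = 0.93) and Snord14c, Cnrip1 and Zfp385a (r = 0.92 each). The largest Acot1 deviation was -1.08, in K15-SKO replicate 1, where the level rested on an estimated 9.51 fragments. The next largest in size was 0.63, in K15-SKO replicate 3. How far these correlations rest on replicate 1 was not tested.

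Macrophages and other leukocytes are known to express Ucp2. Of 10 markers of these cells all 10 were tested, 0 were called and 10 had a negative fold change, with a median of -0.38. Over all tested genes 77.0% were negative, with a median of -0.12. Their sum was 73.1, 74.9, 83.5 and 84.1 FPKM in MyoCre and 37.0, 78.1, 81.4 and 54.9 FPKM in K15-SKO libraries. K15-SKO replicate 1 had both the lowest sum and the lowest Ucp2 level, and K15-SKO replicate 3 the highest Ucp2 level and the highest sum of its genotype. Other libraries did not follow this order. MyoCre replicate 4 had the highest sum of all with Ucp2 at 3.91 FPKM, and K15-SKO replicate 4 a sum of 54.9 FPKM with Ucp2 at 4.94 FPKM. A large part of each sum was Lyz2, at 19.0 to 47.8 FPKM. The macrophage gene Adgre1 was present in all libraries, at 0.815 to 3.02 FPKM. Of 5 endothelial markers, all tested and 0 called, 4 had a positive fold change, with a median of 0.12. Their sum was 75.6 to 105.3 FPKM in MyoCre and 97.6 to 116.3 FPKM in K15-SKO libraries, highest in K15-SKO replicate 3, as Ucp2 was. Erythroid markers also had their highest sum in that library, 2034 FPKM against 284.0 to 577.4 FPKM elsewhere. Cdh5, the cadherin of endothelial junctions, was higher in every K15-SKO library (29.1 to 31.8 FPKM) than in any MyoCre library (18.3 to 27.1 FPKM). The part of leukocytes, endothelium or blood in the Ucp2 level was not tested. Ucp2 and Ucp3 are neighbours on chromosome 7, with 6.9 kb between the end of Ucp3 (100472990 to 100486432) and the start of Ucp2 (100493337 to 100502020), both on the plus strand. Ucp2 made up 5.48% to 8.48% of their summed FPKM in MyoCre and 7.63% to 13.8% in K15-SKO libraries. Both overlap genes on the minus strand. Gm10603, opposite Ucp3, had means of 1.15 (MyoCre) and 0.898 FPKM (K15-SKO), and Dnajb13, opposite Ucp2, had no row.

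**Figure D4:**
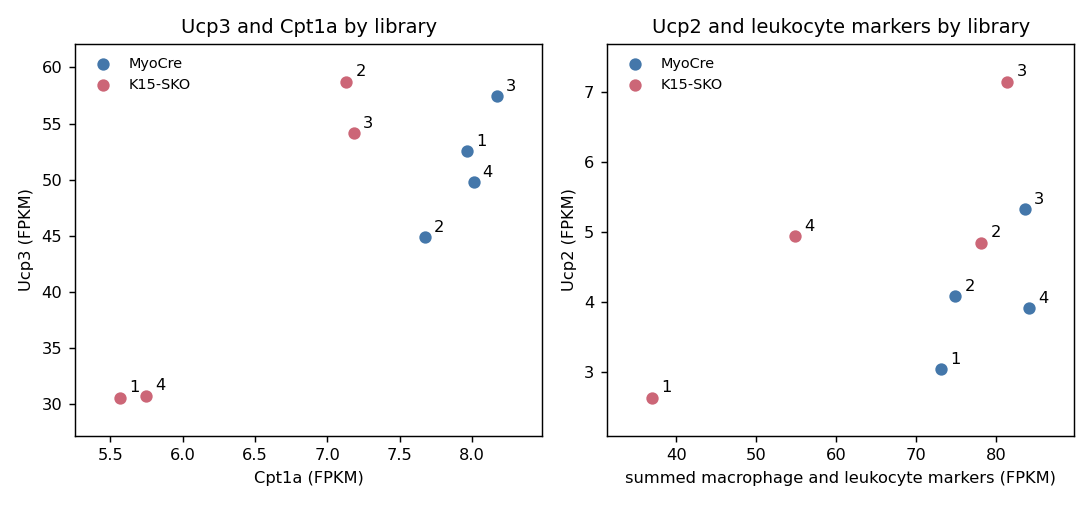
Left, Ucp3 against Cpt1a, and right, Ucp2 against the summed macrophage and leukocyte markers (all FPKM, axes not starting at 0), 1 point for each library with its replicate number. K15-SKO replicates 1 and 4 lie lowest for Ucp3 (30.6 and 30.8 FPKM) and Cpt1a, and K15-SKO replicate 1 lies lowest for Ucp2 and for the marker sum of 37.0 FPKM. The highest marker sum, 84.1 FPKM in MyoCre replicate 4, goes with Ucp2 at 3.91 FPKM.

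By mean FPKM, a level per transcript length, the order in MyoCre muscle was Acot13 (99.5), Ucp3 (51.2), Acot2 (33.7), Acot9 (14.5), Acot7 (9.28), Acot1 (7.42), Acot11 (5.92), Them4 (5.30) and Ucp2 (4.09). From Acot13 down to Acot7 each gene lay above the next in every library of the group. The ranges of neighbours from Acot7 to Ucp2 overlapped. In K15-SKO muscle the order began in the same way, with overlap between Ucp3 and Acot2. Acot1 was last there, at 1.56 FPKM, below Acot11 at 3.64 FPKM in every library. Its range overlapped that of Them4, which in K15-SKO replicate 3 was lower (2.34 against 2.42 FPKM). The thioesterases summed to 169.6 to 187.2 FPKM in MyoCre and 126.2 to 173.6 FPKM in K15-SKO libraries.

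Related genes outside the group were read from lists of the pathway. The lists were written with earlier results of these data known, so their counts and medians are a description only. Among 20 other acyl-CoA and acyl-protein thioesterases 13 were tested and 0 were called, with a median log2 fold change of -0.12, that of all tested genes. In the Acot cluster of chromosome 12 the peroxisomal thioesterase gene Acot6 measured 3.26 ± 0.93 and 2.26 ± 0.50 FPKM (log2 fold change -0.43). Acot4 and Acot5 of the same cluster had means of at most 0.173 FPKM in either genotype. Acot10 and Hibch had fold changes of -0.33 and -0.28, and the peroxisomal Acot8 one of 0.13. Of 7 other uncoupling and adenine nucleotide carriers 5 were tested and 0 were called. Slc25a4, the adenine nucleotide carrier of muscle, measured 2320 ± 187.6 and 2100 ± 344.8 FPKM, and Slc25a5 and Slc25a30 had log2 fold changes of -0.33 and 0.26.

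Acyl-CoA synthetases make the substrates of the thioesterases. Of 24 listed, 13 were tested, 0 were called lower and 1 higher. That gene, Acsf3, was listed at 0 in all MyoCre libraries and at 4.88, 5.45, 5.39 and 3.66 FPKM in K15-SKO muscle. A listing at 0 in a whole genotype need not mean absence in this table, and no fold change is given. Acsl1, the main synthetase by level, measured 245.5 ± 38.1 and 187.6 ± 26.3 FPKM (log2 fold change -0.39, limma adjusted p = 0.957), and Acsl3 had a log2 fold change of -0.34. Of 20 genes of coenzyme A synthesis, hydrolysis and acyl-CoA binding 17 were tested and 0 were called. The median of the 17 was -0.23, against -0.12 over all tested genes. Pank1, a pantothenate kinase at the first step of coenzyme A synthesis, measured 22.5, 27.6, 28.8 and 28.4 FPKM in MyoCre and 15.97, 19.7, 15.1 and 19.7 FPKM in K15-SKO libraries. Its groups did not overlap, and its log2 fold change of -0.60 missed the threshold (limma adjusted p = 0.431). The coenzyme A diphosphatase Nudt19 and the mitochondrial coenzyme A carrier Slc25a42 had log2 fold changes of -0.32 and -0.36.

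The list of known PPAR targets other than the 9 was read for 27 genes. It was written with earlier results of these data known, so its counts and median describe the list and support nothing further. Of these 25 were tested and 0 were called by limma. Fold changes were negative for 23 of the 25, where 77.0% of all tested genes were negative. The median of the 25 was -0.32, against -0.12 over all tested genes. Ehhadh, the peroxisomal bifunctional enzyme, measured 6.43, 3.14, 7.02 and 6.93 FPKM in MyoCre and 2.03, 3.07, 1.90 and 2.16 FPKM in K15-SKO libraries. The carrier gene Slc25a34 measured 29.3, 30.7, 40.8 and 30.1 FPKM in MyoCre and 8.07, 21.3, 16.05 and 9.81 FPKM in K15-SKO libraries. Of the 25 tested PPAR targets 4 had all K15-SKO libraries below all MyoCre libraries, which held for 2.72% of all tested genes. They were Ehhadh, Slc25a34, Cpt1a and Acadl, and all missed the threshold (limma adjusted p = 0.0613, 0.0534, 0.957 and 0.957). Lpl, the lipoprotein lipase, measured 588.7, 510.0, 498.4 and 343.3 FPKM in MyoCre and 337.6, 370.6, 118.2 and 262.7 FPKM in K15-SKO libraries. Its groups overlapped, with K15-SKO replicate 3 the lowest (log2 fold change -0.93, limma adjusted p = 0.825). Of 16 regulators Klf15 alone was called, and Ppara, the receptor of the PPAR family known for fatty acid oxidation, measured 25.04 ± 5.79 and 19.0 ± 4.59 FPKM (log2 fold change -0.39). Nr3c1, the glucocorticoid receptor, had a log2 fold change of -0.34. Adipocyte markers, 6 tested and 0 called, had a median of -0.41, against -0.12 over all tested genes. They summed to 259.8 to 346.5 FPKM in MyoCre and 254.1 to 498.1 FPKM in K15-SKO libraries. Most of that sum was Fabp4 (217.0 to 306.1 and 226.2 to 458.0 FPKM), the only tested adipocyte marker with a positive fold change. The means of Cfd, Adipoq and Plin1 in K15-SKO muscle were 65.3%, 66.7% and 59.1% of those in MyoCre. The part of fat cells in these levels was not tested.

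**Figure D5:**
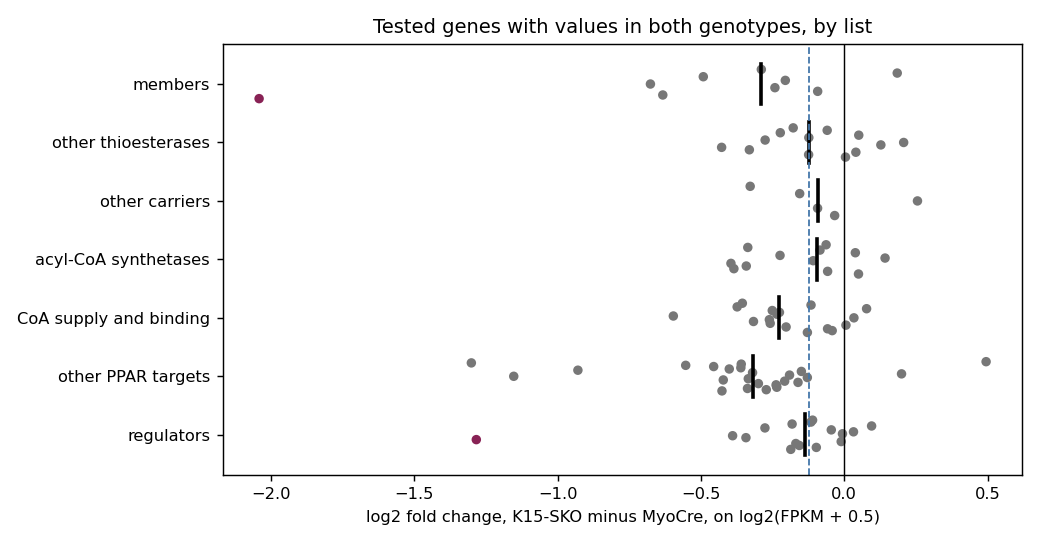
Log2 fold change (horizontal axis, K15-SKO minus MyoCre) of each tested gene with values in both genotypes, by list; black bars are list medians, the dashed line is the median of all tested genes (-0.12) and purple marks an adjusted p under 0.05. Acot1 and Klf15 are the purple points.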

How the data were processed

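RNA was measured in soleus from 4 MyoCre and 4 K15-SKO mice, grouped by sample title. The authors deposited 1 table taken here to be FPKM, a unit inferred because its header names only samples; it holds 0 other value columns. Per the submitters' processing notes STAR, Cufflinks, Cuffdiff and mm10 were used; what the sources used here do not give are versions, roles, annotation release, strand setting and library scaling. Without strand, overlapping antisense genes cannot be told apart.

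Values were tested as log2(FPKM + 0.5) with limma 3.58.1 in R 4.3.3 (trend, robust, genotype alone, two-sided, Benjamini-Hochberg over the 12535 genes averaging 1 FPKM or more) and tested on simulated data. FPKM are not counts, so no count model was run. Depth was estimated by taking the most common low value of FPKM times length, in 4820 single-transcript genes over 1 kb, as 1 fragment. The 9 genes, the lists and the rules were chosen with earlier results of these data known; 1 gene of the PPAR target list is not reported here and is left out of the list's counts. Named genes are the 9, Klf15, called list genes or the 3 smallest p of each pathway list, Acot or Ucp neighbours, and the 5 genes most correlated with Acot1, Ucp2 and Ucp3; the rest were named after their values were seen. Of 24033 gene IDs 23896 matched GENCODE vM21, the source of gene positions; promoters are from RefSeq. Alternatives changed the pseudocount (1 or 0.1), filter, scaling, variance estimation, library weights, replicate block, genes listed at 0 and libraries left out.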

Additional observations from a re-analysis of the deposited data

Results flagged for a closer look

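In each group of 4 libraries the gap between the most extreme value and its neighbour was set against the range of the group, for 53 groups of values. Chance alone marks about 1 in 20 groups, and 4 were marked. The Acot1 share of the summed Acot1 and Acot2 levels was 14.2% in MyoCre replicate 2, the male library, with the next control at 19.0%. Ehhadh was lowest in the same library, at 3.14 FPKM against 6.43 FPKM in the next. Slc25a34 was highest in MyoCre replicate 3, at 40.8 FPKM against 30.7 FPKM. Erythroid markers summed to 2034 FPKM in K15-SKO replicate 3, against 577.4 FPKM in the next library of its genotype. No level of the 9 genes themselves was marked.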

How the results depend on the processing

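The signs of Acot1, Acot2, Acot7, Acot9, Acot11, Them4, Ucp3 and Klf15 held in every alternative fit that tested them. Acot13 turned positive with median-of-ratios scaling (0.045, also without the genes listed at 0), upper-quartile scaling (0.038), quantile normalization (0.014) and library weights (0.037), and ranged from -0.16 to 0.015 with 1 library left out, the highest value being that without K15-SKO replicate 3. Ucp2 turned negative with library weights (-0.21) and without K15-SKO replicate 3 (-0.0064), with a range of -0.0064 to 0.42 over the fits with 1 library left out. The number of the 9 genes called lower was 1, and became 0 with median-of-ratios scaling (also without the genes listed at 0), upper-quartile scaling or quantile normalization, 0 with a minimum mean of 5 FPKM, which removes Acot1, Acot11, Them4 and Ucp2 from the test, and 3 with library weights; leaving out 1 library gave 0 to 1. Klf15 kept a log2 fold change of -1.28 but missed the threshold without a filter, without robust estimation and without the genes listed at 0; it was -1.15 with median-of-ratios scaling, upper-quartile scaling or quantile normalization, missing the threshold in each, and -1.55 to -1.18 with 1 library left out, missing the threshold in 6 of these 8 fits. Over all genes 23 were lower and 46 higher. The 23 became 15 with median-of-ratios scaling, 14 with upper-quartile scaling, 14 with quantile normalization, 15 without robust estimation, 101 with library weights, 12 without the genes listed at 0, 3 with that and median-of-ratios scaling, and 8 to 28 with 1 library left out; the 46 became 22 with a minimum mean of 5 FPKM and 0 in both fits without the genes listed at 0, and 45 to 54 with 1 library left out. The cause of these changes was not tested beyond the smaller set of genes. Median-of-ratios scaling moved the median of all genes from -0.12 to 0.00. Same-numbered libraries correlated at 0.10, 0.23 and 0.28 in their deviations for replicates 1, 2 and 4 and at 0.0022 for replicate 3; 5 of 8 libraries correlated best with their own number. This hints at shared numbering, but no label gives it and replicate 3 correlated at only 0.0022, so the numbers were not used to pair the mice. With the replicate block 32 genes were lower, 46 higher and 1 of the 9 called, Acot1. Counts were not used here, so low levels such as Acot1 in K15-SKO muscle carry counting error that could not be modelled.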
